A study of Mus musculus with 12 samples.

Results

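Tet1, Tet2 and Tet3 encode the 3 TET enzymes, and these are the genes that were deleted in the retinas described here. Their DNA was followed through the differentially methylated regions (DMRs) of 2 assays, taking every region that overlapped a gene of the GENCODE M21 annotation (mouse genome mm10) or the 5 kb on either side of it. Of 786742 regions in all, 176 met that rule, of which 58 were among 193836 regions found by whole-genome bisulfite sequencing (WGBS) and 118 among 592906 found by bACE-seq. The rule used position alone and no measured level.

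The DNA came from whole retinas of C57 BL/6J mice at postnatal day 21 (P21). Each assay had 3 libraries labelled Cre- (genotype label WT) and 3 labelled Tet tcKO, in which Tet1, Tet2 and Tet3 all carry loxP sites on both alleles and are recombined by a Chx10-Cre-GFP transgene. That transgene is driven in retinal progenitor cells, is known to be mosaic, and was made homozygous to limit this. Retinas of a pair of animals were pooled for a library. At this age the authors report fewer cells with rod markers, more with cone markers and more microglia in Tet tcKO retinas. Each level below is a mean over the whole retina, so the groups compared differ in cell make-up. What this contributes to any difference was not tested. Whether Cre- animals carried loxP alleles, and which exons the loxP sites flank, is not given in the sources used here. DNA of a segment removed by Cre can be read only from cells that were not recombined, so a Tet tcKO level inside such a segment would describe those cells alone. Such a segment holds intron sequence beside its exons, and it would also give fewer reads from which to call regions. The exons and introns this touches could not be set apart. Every Tet tcKO level, share kept and contrast of coverage between exons and introns of the 3 genes is given with that limit, whose effect was not tested. WGBS reads 5-methylcytosine (5mC) and 5-hydroxymethylcytosine (5hmC) together, whereas bACE-seq adds a deaminase and reads 5hmC alone. The lists give the authors' mean level of each group and neither the 12 libraries nor their depth. No spread between replicates, interval or test could therefore be computed for any level below, and the libraries of both groups cannot be said to overlap or not. Marker checks of the tissue are not possible from methylation levels of regions.

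TET enzymes are dioxygenases that use iron and 2-oxoglutarate to oxidise 5mC to 5hmC and then to further forms, which the glycosylase TDG and base excision repair replace with unmodified cytosine. Tet1 and Tet3 carry a CXXC domain that binds CpG-rich DNA, while that of the Tet2 ancestor now lies in a separate gene, Cxxc4. Neurons are rich in 5hmC, which accumulates along the bodies of transcribed genes. CpG-dense promoters are commonly kept free of both marks.

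All 3 genes lie on the minus strand. Tet1 (ENSMUSG00000047146.17) spans chr10:62804570-62908996, Tet2 (ENSMUSG00000040943.12) spans chr3:133463679-133545139 and Tet3 (ENSMUSG00000034832.15) spans chr6:83362373-83459084. With their flanks they hold 1314, 868 and 1637 CpGs, a density of 1.15, 0.949 and 1.53 CpGs per 100 bp.

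Sequences of a promoter and of an intronic region are shown for each gene, since most of the regions described here are intronic and the promoters differ in CpG content. The promoters below are RefSeq windows of 300 bases on GRCm38.p6, at chr10:62887275-62887574, chr3:133544341-133544640 and chr6:83441629-83441928. At Tet2 and Tet3 most bases lie before the nearest GENCODE start used below. At Tet1 most lie after it (position 62887512). They are written on the minus strand, 5′ to 3′, with each CpG in capitals.
Tet1 promoter: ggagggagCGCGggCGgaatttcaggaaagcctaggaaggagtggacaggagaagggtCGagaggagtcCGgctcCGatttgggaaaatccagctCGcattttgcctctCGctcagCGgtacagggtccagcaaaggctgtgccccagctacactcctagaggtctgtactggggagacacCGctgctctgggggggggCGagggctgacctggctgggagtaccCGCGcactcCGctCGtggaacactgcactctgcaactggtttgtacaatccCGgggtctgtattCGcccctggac
Tet2 promoter: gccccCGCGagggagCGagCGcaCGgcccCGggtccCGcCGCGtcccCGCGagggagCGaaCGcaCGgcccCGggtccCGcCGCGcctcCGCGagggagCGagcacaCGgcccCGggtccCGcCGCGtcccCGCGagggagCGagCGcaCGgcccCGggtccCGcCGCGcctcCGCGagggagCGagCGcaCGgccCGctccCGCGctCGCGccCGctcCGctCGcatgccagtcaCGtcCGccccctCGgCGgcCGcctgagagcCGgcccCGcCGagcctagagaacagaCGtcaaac
Tet3 promoter: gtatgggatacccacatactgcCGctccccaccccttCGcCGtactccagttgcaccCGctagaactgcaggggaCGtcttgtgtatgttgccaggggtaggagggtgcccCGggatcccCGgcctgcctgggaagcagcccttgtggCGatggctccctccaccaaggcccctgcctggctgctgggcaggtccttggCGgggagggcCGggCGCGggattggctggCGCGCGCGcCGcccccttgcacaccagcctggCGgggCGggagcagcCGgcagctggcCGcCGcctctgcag

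These windows hold 17, 57 and 22 CpGs, against a median of 14 over the 20150 RefSeq promoters of protein-coding genes. The Tet2 window is more CpG-rich than 99.8% of them and contains a tandem repeat. Each gene has other starts that these windows do not show. Within 500 bp, the Tet3 start at position 83456392 has 127 CpGs, and the Tet2 starts have 61 and 106. No WGBS region touched any of the 3 windows, which is the common state, since 9.83% of all promoter windows hold part of a WGBS region that was higher in Tet tcKO. A bACE-seq region lay in the Tet1 window and none in the others, where the share over all promoters is 20.7%.

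The next 3 windows, each of 300 bases on the same build and strand, are centred on the WGBS region of each gene with the largest rise, and all are intronic. They lie at chr10:62876533-62876832 (Tet1), chr3:133496888-133497187 (Tet2) and chr6:83434204-83434503 (Tet3), each in intron 2. Exons and introns are numbered here along 1 GENCODE transcript per gene, which for Tet3 is that from the start at position 83441675.
Tet1 intronic gain: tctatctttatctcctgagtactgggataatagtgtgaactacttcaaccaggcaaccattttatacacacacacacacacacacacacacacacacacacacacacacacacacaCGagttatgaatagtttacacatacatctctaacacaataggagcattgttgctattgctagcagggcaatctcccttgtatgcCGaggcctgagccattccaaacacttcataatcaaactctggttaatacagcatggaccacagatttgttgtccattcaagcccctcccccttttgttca
Tet2 intronic gain: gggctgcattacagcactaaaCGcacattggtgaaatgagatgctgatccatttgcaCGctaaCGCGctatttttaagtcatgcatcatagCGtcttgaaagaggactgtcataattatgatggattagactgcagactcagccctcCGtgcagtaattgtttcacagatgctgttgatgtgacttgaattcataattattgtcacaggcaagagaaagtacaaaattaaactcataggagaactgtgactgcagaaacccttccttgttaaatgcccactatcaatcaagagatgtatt
Tet3 intronic gain: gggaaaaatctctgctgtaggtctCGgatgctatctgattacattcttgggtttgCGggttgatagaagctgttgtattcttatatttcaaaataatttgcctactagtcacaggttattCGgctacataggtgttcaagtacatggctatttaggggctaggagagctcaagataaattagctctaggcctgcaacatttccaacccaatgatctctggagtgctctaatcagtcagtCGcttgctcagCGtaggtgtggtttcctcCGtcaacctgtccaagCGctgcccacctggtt

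The capitals again mark CpGs, of which these windows hold 2, 6 and 7. The median over 191164 such windows, 1 for each WGBS region higher in Tet tcKO, is 5. The Tet1 window includes a CA repeat, and 2 of the region's 4 CpGs fall at its edges outside the window. The letters TAATCC, read on both strands as the core that photoreceptor homeodomain factors such as CRX bind, occur once in the Tet2 window and not in the other 2 windows. They occur in 15.3% of all such windows.

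At the genes of the missing enzymes, all 58 WGBS regions were higher in Tet tcKO (WGBS gains) and all 118 bACE-seq regions were lower (5hmC losses). Tet3 had 33 gains, Tet1 had 16 and Tet2 had 9. At least 1 gain occurs in 76.8% of 21938 protein-coding genes with the same flank, and in 98.0% of the 3117 that are at least as long as Tet2. At least 1 5hmC loss occurs in 88.3% of all genes and 99.5% of the long ones. The presence of both at 3 of 3 genes is thus the common state of genes of this length. Nor is the lack of a WGBS region lower in Tet tcKO unusual, since 4.9% of all genes and 13.6% of the long ones have one. A bACE-seq region higher in Tet tcKO occurs in 0.401% of genes and 1.76% of the long ones. Over the whole lists, 98.6% of WGBS regions were higher, and 592697 of the bACE-seq regions were lower.

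The extent of the gains separated Tet3 from the other two. Gains covered 41763 bp or 39.1% of the Tet3 locus, 9798 bp or 8.56% of the Tet1 locus and 2901 bp or 3.17% of the Tet2 locus. The median gene has 3.36% of its bases in gains and the 90th percentile is 13.6%, so the Tet3 share exceeded that of 99.4% of genes, while Tet1 exceeded 78.4% and Tet2 48.5%. Among genes at least as long as Tet2, the median is 4.55% and the 90th percentile 13.2%. Counted by CpGs, the shares were 39.6% for Tet3, 12.5% for Tet1 and 7.14% for Tet2. Tet3 gains were also the longest, with a median of 596 bp against 406 bp at Tet1 and 248 bp at Tet2, where no gain had more than 9 CpGs.

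**Figure D1:**
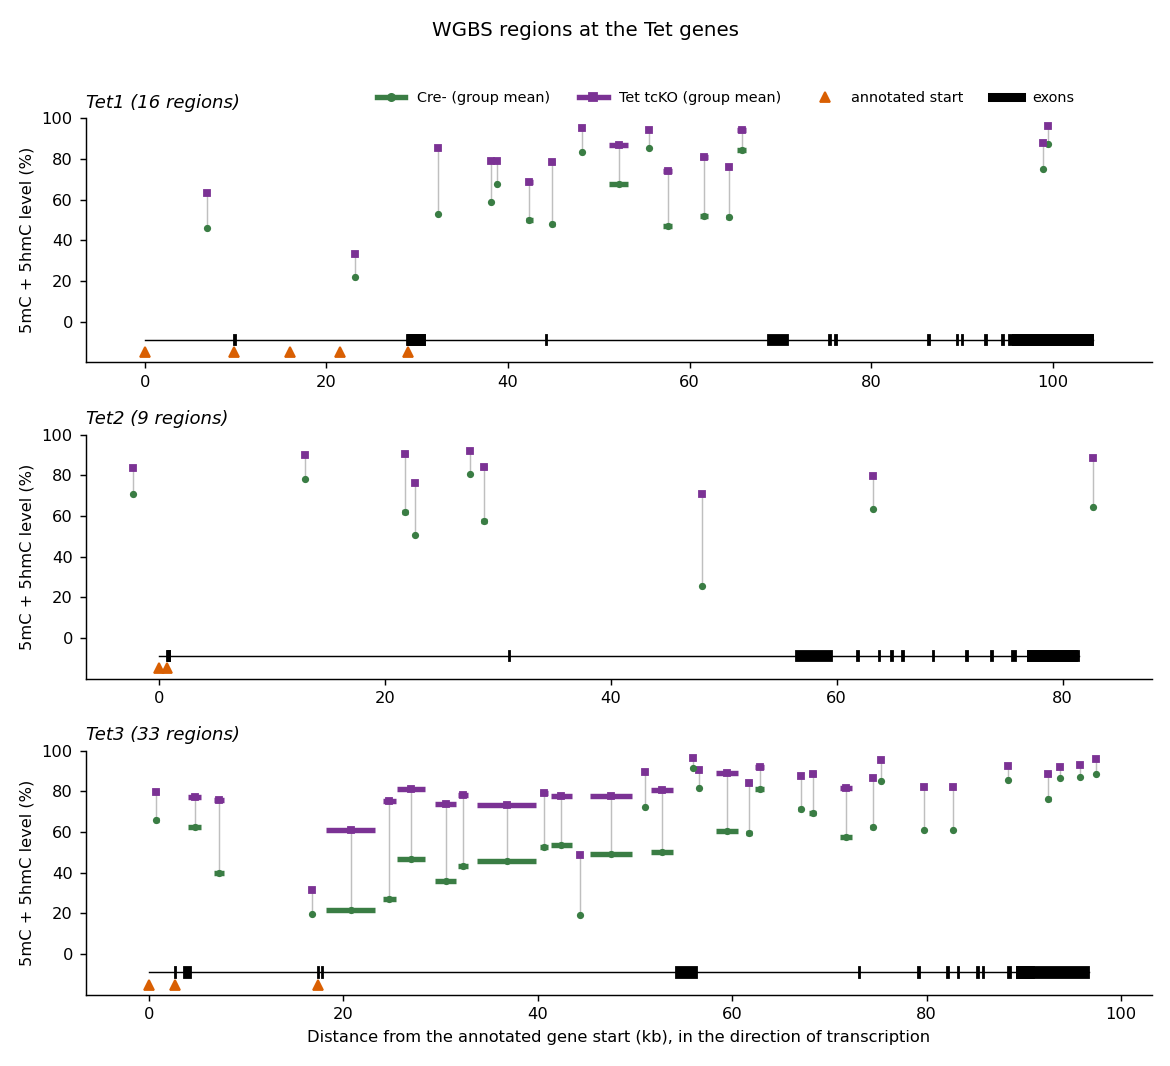
Level of modified cytosine (5mC and 5hmC, y axis, in %) of each WGBS region at the 3 genes, plotted by distance from the annotated gene start (x axis, in kb). Green marks the Cre- group mean and purple the Tet tcKO group mean, with a bar as wide as the region; exons are black boxes and triangles are annotated starts. Every purple mark lies above its green mark, and the 12 gains of Tet3 intron 2 form a nearly unbroken stretch.

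The levels in the gains were similar at the 3 genes in Cre-, at 58.4% for Tet1, 59.8% for Tet2 and 53.3% for Tet3 (means weighted by CpGs). The Tet tcKO means over the same regions were 77.4%, 83.6% and 78.7%. The rises of 19.0, 23.8 and 25.3 percentage points compare with a median of 15.8 points over the 16845 genes that have a gain. Single regions ranged widely, from a rise of 5.00 points to one of 48.3 points, both at Tet3. Of the 58 gains, 13 at Tet1, 9 at Tet2 and 27 at Tet3 rose by at least 10 points.

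Tet3 held the regions with the highest area statistics of the family. This deposited score sums the test statistic over a region and served only to choose which regions to describe. Its sign is that of Cre- minus Tet tcKO, so scores are compared here by size without sign. The first lies in intron 2 of Tet3 just downstream of the last annotated start, at chr6:83435771-83440848 with 61 CpGs, and went from 21.9% in Cre- to 60.9% in Tet tcKO. Its area statistic ranks 214 in the whole WGBS list. The second, at chr6:83419213-83425277 with 67 CpGs, went from 45.6% to 73.2%. The third, at chr6:83409429-83413667 with 61 CpGs, went from 49.2% to 78.0%. The region with the largest rise, at chr6:83433691-83435015, went from 27.0% to 75.4%. All 4 lie in the same intron, and none includes an exon of the reference transcript.

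That intron, between exons 2 and 3, is 36392 bp long, and gains covered 79.1% of it. Its 12 gains rose by 32.2 points, from a mean of 42.2% in Cre- to 74.4% in Tet tcKO. From exon 3 to the end of Tet3, over 42452 bp, 16 gains covered 22.3% and rose by 15.7 points from 73.3% to 89.0%. Upstream of exon 1, towards the gene start, 4 gains covered 18.3% and rose from 53.1% to 72.6%.

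Along Tet3 the Cre- level was graded. Between 20% and 30% of the gene's length from its start it was 30.7% in the gains, then 43.4% up to 40%, 49.5% up to 50%, 61.4% up to 60% and 69.2% up to 70%, and it reached 82.3% in the final segment from 90% on. The 2 segments from 70% to 90% had 66.7% and 61.0%. The Tet tcKO level covered a narrower range over these segments, from 69.5% in the first of them to 90.9% in the final one. The rise went from 38.9 points in the former to 8.53 points in the latter. Where the Cre- level is near its ceiling, a large rise is not possible, so the rise and the Cre- level are not independent measures. The first 3 gains from the gene start do not follow the gradient, with Cre- levels of 66.0%, 62.4% and 40.1%. The segment from 10% to 20%, with 1 gain, had the lowest level of any segment in both groups. It went from 19.9% to 31.7%, a rise of 11.7 points, so a low Cre- level did not always go with a large rise.

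The Tet3 exons were included in few gains. Over coding exons away from start sites, gains covered 7.68% of the bases, against 48.7% of introns. Counted by CpGs, these shares were 11.3% and 58.1%. The 3 gains on coding exons downstream of the large intron were already high in Cre- at 91.6%, 81.8% and 85.8%, and were at 96.6%, 90.7% and 92.6% in Tet tcKO. In untranslated exons, gains covered 12.6% of the bases and 28.8% of the CpGs, and went from 80.6% to 90.0%. A gain of 42 CpGs at chr6:83453673-83455061 spans coding and untranslated sequence of an upstream exon and went from 62.4% to 77.4%.

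Tet1 showed a similar place of change on a smaller scale. Its start-codon exon (exon 2) and the large coding exon 4 enclose 37773 bp, of which gains covered 22.4%, with 12 of the 16 gains. The mean over these 12 was 61.2% in Cre- against 81.7% in Tet tcKO. The 3 gains with the highest area statistics all lie in intron 3. The first, at chr10:62855757-62857833 with 26 CpGs, went from 67.9% to 86.9%. The second, at chr10:62847037-62847850 with 16 CpGs, went from 52.1% to 81.0%. The third, at chr10:62863865-62864400 with 12 CpGs, went from 48.0% to 78.5%.

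From the large exon 4 to the end of Tet1, 2 gains covered 1.70% of the bases. Both are in the 3′ untranslated part of the last exon and rose by 9.25 and 12.7 points from Cre- levels of 87.2% and 75.2%. Between the start-codon exon and the gene start there were 2 more, at chr10:62885668-62886058 (21.9% to 33.4%) and at chr10:62901938-62902284 (45.9% to 63.1%). No gain overlapped a coding exon of Tet1 or Tet2.

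At Tet2 the 9 gains were short and scattered. The most marked, at chr3:133496881-133497193 with 8 CpGs, went from 25.5% to 71.0%, a rise of 45.5 points that is larger in size than 99.5% of the changes in the WGBS list. The other 2 with the highest area statistics lie in intron 1 at chr3:133516111-133516650 (57.3% to 83.8%) and beyond the gene end at chr3:133462254-133462649 (64.4% to 88.5%). The other 6 had Cre- levels between 50.4% and 80.8% and Tet tcKO levels between 76.4% and 92.1%. One of these lies upstream of the gene start, within the antisense gene Gm42567, at chr3:133547297-133547544 (70.7% to 83.6%).

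Starts within 500 bp of each other were merged into 5 for Tet1, 2 for Tet2 and 3 for Tet3. No WGBS region lay on any of these 10 starts, and a gain lies on 6.86% of the 30777 starts of all protein-coding genes, so a start without one is the common state. Within 2 kb, 4 of the 10 starts had a gain, close to the 48.2% of all starts that do. Tet1 had 1 gain within that distance, Tet2 had 0 and Tet3 had 4, at all 3 of its starts. Gains covered 24.9% of the bases within 2 kb of a Tet3 start and 1.95% of those at Tet1. By bases, the Tet3 share is below that of its introns and above that of its exons. By CpGs it was 17.1%, above its coding exons (11.3%) and below its untranslated exons (28.8%) and introns (58.1%). The gain nearest to a Tet1 start lay 1454 bp downstream of position 62887512, and that nearest to a Tet2 start lay 2158 bp upstream of it. At Tet3, the start at position 83441675 had 55 CpGs within 500 bp and was flanked by gains, with one 502 bp upstream (chr6:83442177-83442422, 19.9% to 31.7%, within the opposite-strand gene B230319C09Rik) and the first-ranked gain 827 bp downstream. The start at position 83456392 had 127 CpGs within 500 bp, and its nearest gains lay 1331 and 1628 bp away. A region that is missing from the list need not have had equal levels in both groups.

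The 5hmC losses were spread over far more of each gene. Tet1 had 46, Tet2 had 40 and Tet3 had 32, and they covered 40.1%, 45.1% and 75.8% of the loci. The median over 21938 genes is 27.7%, and the Tet3 share exceeded that of 98.8% of genes, Tet2 that of 75.8% and Tet1 that of 68.7%. The lower number at Tet3 went with longer regions, since their median length was 1824 bp against 672 bp at Tet1 and 696 bp at Tet2.

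**Figure D2:**
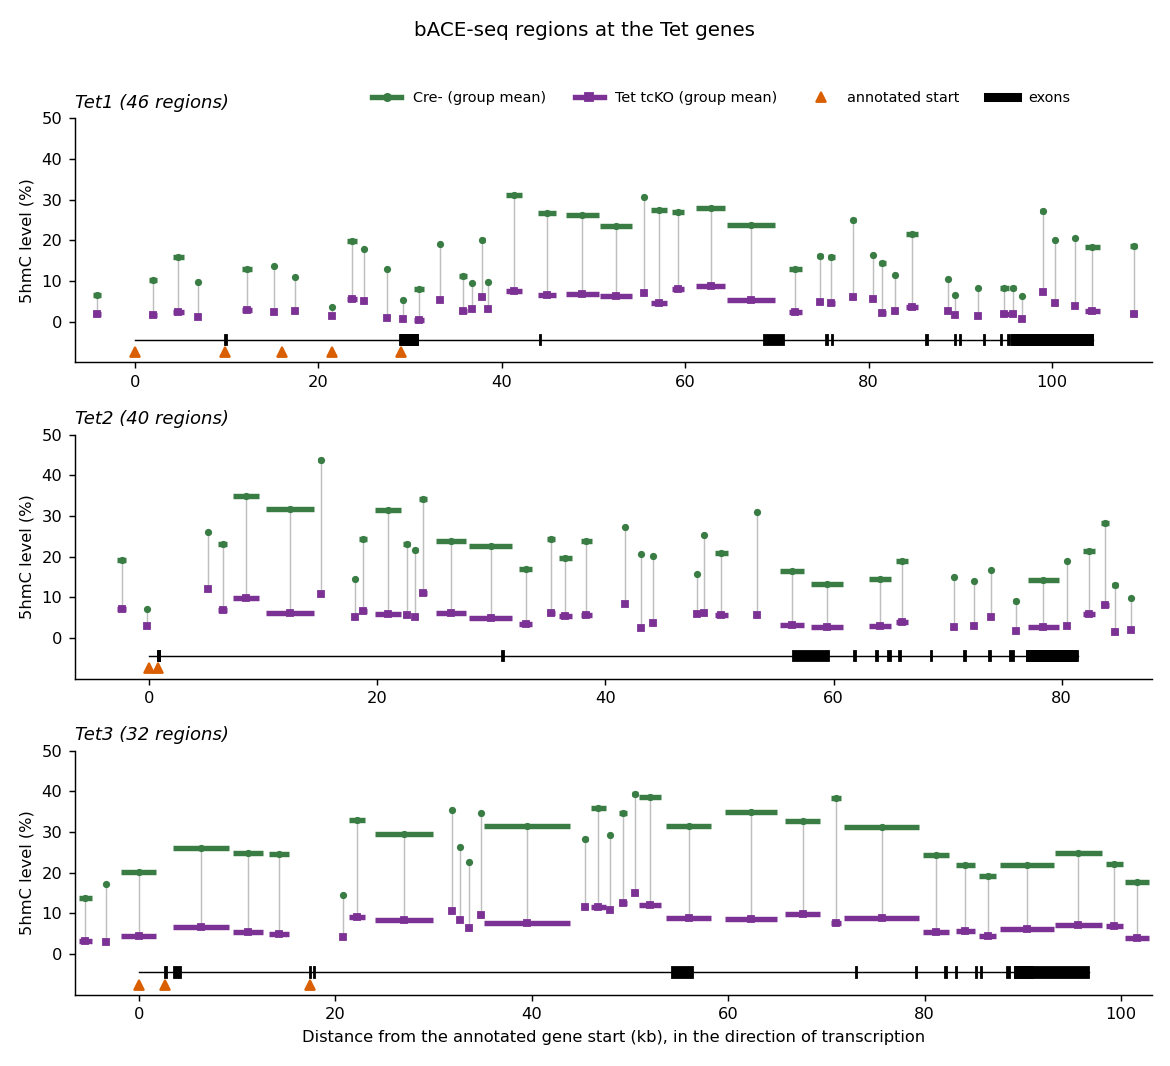
5hmC level (y axis, in %, to 50) of each bACE-seq region at the 3 genes, by distance from the annotated gene start (x axis, in kb), with Cre- group means in green, Tet tcKO group means in purple, exons as black boxes and annotated starts as triangles. Every Tet tcKO level lies below its Cre- level, and the Cre- level is highest along the middle of Tet3 and in the first introns of Tet2.

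In the losses, 5hmC (as a mean over CpGs) went from 18.2% in Cre- to 4.29% in Tet tcKO at Tet1, from 21.6% to 5.04% at Tet2 and from 27.6% to 7.53% at Tet3. Over the 19362 genes with a loss, the median Cre- level is 14.6%. The Tet3 level was above that of 99.0% of these genes, the Tet2 level above 90.9% and the Tet1 level above 77.1%. Tet tcKO retinas thus kept 23.6% of the Cre- level at Tet1, 23.3% at Tet2 and 27.2% at Tet3, beside a median of 23.6% and a 90th percentile of 26.9% over the same genes. Regions were listed for a change in level, so the share kept in them need not be that of all CpGs of the gene. The authors estimate that about 2% of unmodified cytosines stayed unconverted in bACE-seq. Subtracting 2 percentage points from both levels left 14.2% at Tet1, 15.5% at Tet2 and 21.6% at Tet3. An equal background in both groups was assumed, and the shares above it are not corrected for any.

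At Tet1 the 5hmC level followed the same middle introns as the gains. Between the start-codon exon and exon 4, losses covered 64.4% of the bases, with 22.7% in Cre- and 5.66% in Tet tcKO. From exon 4 on they covered 35.1%, with 15.1% and 3.28%, and from the start-codon exon up to the gene start 21.4%, with 12.1% and 2.53%. The largest differences were at chr10:62866734-62868484 (31.1% to 7.55%), chr10:62853350-62853734 (30.6% to 7.07%) and chr10:62851027-62852746 (27.4% to 4.60%), all intronic.

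The smallest differences at Tet1 were close to starts or in the upstream flank. A region of 6 CpGs on the start at position 62887512, inside the promoter printed above, went from 3.68% to 1.30%. A region of 27 CpGs in the start-codon exon, 7 bp downstream of the start at position 62880014, went from 5.29% to 0.718%. The third lies in the upstream flank at chr10:62912695-62913548 and went from 6.51% to 1.80%. The lowest Tet tcKO level of the family, 0.519%, was in a region of 31 CpGs on the same start-codon exon at chr10:62877492-62878577, which had 8.05% in Cre- and kept 6.44% of it. Tet tcKO levels below 2%, here and elsewhere, lie under the authors' estimate of unconverted cytosine. Their order and the shares kept in such regions are therefore uncertain.

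Tet2 had its highest 5hmC levels early in the gene. Between 10% and 20% of its length the losses went from 33.6% in Cre- to 7.58% in Tet tcKO, in the next segment from 27.2% to 6.32%, and over the final 10% from 14.4% to 2.84%. From the gene start to the start-codon exon, losses had 25.1% and 5.92%, and from that exon to the gene end 14.6% and 2.91%. The region with the highest Cre- level of the family is in intron 1 at chr3:133529867-133530372, with 43.8% in Cre- and 10.9% in Tet tcKO over 6 CpGs. Its change of -32.9 points is larger in size than 99.9% of those in the bACE-seq list, and no WGBS gain overlapped it. The next largest, also in intron 1, were at chr3:133523059-133525357 (31.4% to 5.79%) and chr3:133530709-133534904 (31.7% to 6.04%).

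The smallest differences at Tet2 were 133 bp upstream of the gene start at chr3:133545272-133545392 (7.16% to 3.03%, within Gm42567), over coding exon 10 at chr3:133468977-133469374 (9.09% to 1.62%) and in the downstream flank at chr3:133458997-133459135 (9.71% to 1.97%). Within 2 kb of its starts, losses covered 2.55% of the bases, against 77.4% of the coding exons elsewhere. Tet2 also held the region that kept most, at chr3:133539911-133540111, with 26.0% in Cre- and 12.0% in Tet tcKO, a share of 46.1%. No region at the 3 genes kept 50% or more.

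Along Tet3 the 5hmC level changed less than the level of modified cytosine. In Cre- it was 26.0% in the first 10% of the gene, 29.6% between 20% and 30%, 34.1% between 60% and 70%, and 23.1% in the final segment, where losses covered 95.2% of the bases. The largest differences were at chr6:83387612-83388592 (38.3% to 7.66%), chr6:83405885-83408170 (38.6% to 12.0%) and chr6:83394128-83399400 (35.1% to 8.61%), in introns 3, 2 and 3. Unlike the gains, losses covered 98.2% of the coding exons and 99.1% of the untranslated exons away from start sites, with 26.1% in Cre- and 7.19% in Tet tcKO over coding exons and 30.0% and 8.18% over introns. A 5hmC loss lay on the Tet3 start at position 83459084, where losses covered 88.7% of the bases within 2 kb and went from 20.2% to 4.50%. They covered 57.1% around the start at position 83456392, and none lay within 2 kb of the start at position 83441675. Over all Tet3 starts the share of bases was 44.6%, against 13.8% at Tet1. By CpGs the order was reversed, at 22.3% for Tet3 and 28.3% for Tet1. Among the 10 starts of the family, 2 had a loss on the start and 9 had one within 2 kb, beside 16.8% and 77.9% of all starts. The smallest differences were in intron 2 at chr6:83438236-83438438 (14.6% to 4.19%), in the upstream flank at chr6:83463901-83465163 (13.8% to 3.29%) and in the downstream flank at chr6:83356247-83358619 (17.6% to 3.89%). That last region and chr6:83358896-83360625 (22.1% to 6.94%) also overlap Bola3, a gene of iron-sulphur cluster assembly next to Tet3.

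**Figure D3:**
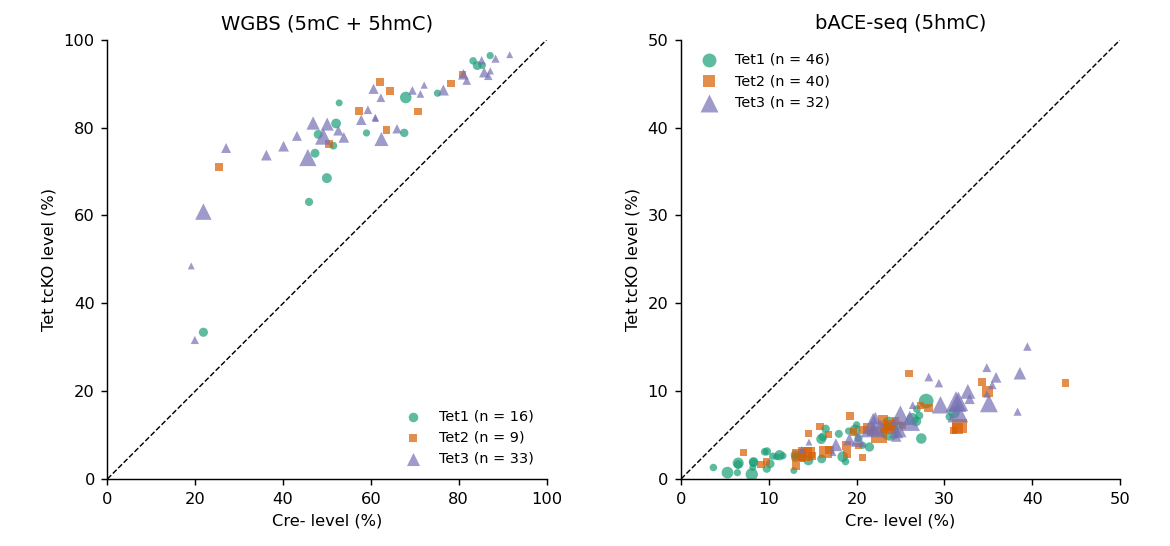
Tet tcKO level (y axis, %) against Cre- level (x axis, %) of each region, for WGBS (left) and bACE-seq (right), with a symbol for each gene and a size that grows with the number of CpGs; the dashed line marks equal levels. All 58 WGBS regions lie above the line and all 118 bACE-seq regions lie below it.

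The positions of both lists were then set side by side. Of the gains, 15 of 16 at Tet1, 9 of 9 at Tet2 and 31 of 33 at Tet3 shared 1 bp or more with a 5hmC loss, which 81.1% of all 191164 gains do. The reverse counts were 13 of 46 losses for Tet1, 9 of 40 for Tet2 and 24 of 32 for Tet3, beside 24.1% of all losses. At Tet3 these counts stand beside losses over 75.8% and gains over 39.1% of the whole locus. In Cre- retinas, 5hmC was higher in losses under a gain than in the remaining ones, at 24.7% against 12.6% for Tet1, 24.1% against 19.9% for Tet2 and 28.9% against 21.2% for Tet3. The 3 gains with no loss under them were the region of the largest rise at Tet1 (52.8% to 85.6%) and, at Tet3, the gain 502 bp upstream of a start and one of 4 CpGs at chr6:83414702-83414852 (19.1% to 48.5%).

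The levels of both assays were paired where a gain and a loss overlap, each level being the mean of its whole region, since the lists hold no level for part of a region. Some of the paired regions lie mostly outside the overlap. In some Tet3 pairs the Cre- 5hmC level was above the Cre- WGBS level. One is the loss at chr6:83436095-83437677 with 32.9%, inside the first-ranked gain with 21.9%. WGBS counts 5hmC as well, so both means of such a pair cannot describe the same CpGs. These pairs enter the Tet3 ratio and difference below, which are therefore less certain. Weighted by the CpGs of the overlap, the Cre- level at Tet3 was 30.1% for 5hmC beside 56.7% for WGBS, a ratio of 53.1%, while the ratio was 39.4% at Tet1 and 37.4% at Tet2. In Tet tcKO the ratios were 10.4% at Tet3, 7.61% at Tet1 and 6.61% at Tet2. The WGBS mean less the 5hmC mean, a rough measure of 5mC, went from 26.6% to 72.5% at Tet3, from 37.0% to 74.3% at Tet1 and from 38.5% to 78.7% at Tet2. These levels come from separate libraries and from regions that were called separately, and their difference has no error estimate.

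**Figure D4:**
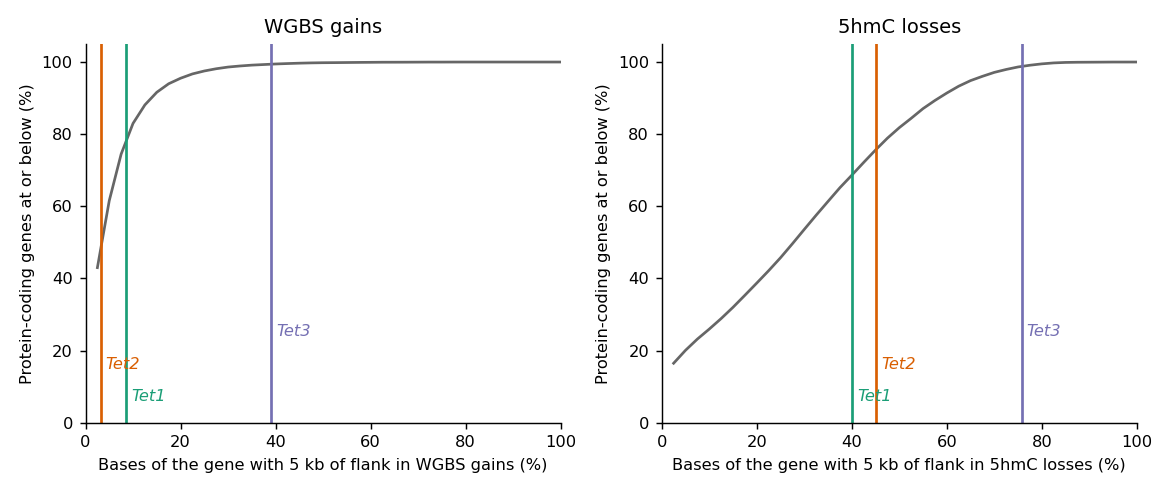
Percent of 21938 protein-coding genes (y axis) whose share of bases in WGBS gains (left) or 5hmC losses (right) is at or below the value on the x axis (%, gene with 5 kb of flank), with a vertical line for each Tet gene. Tet3 lies at the upper end of both curves, at 39.1% and 75.8%, and Tet1 and Tet2 lie within the main body.

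Other genes that act on the same modification give a setting for these values. The list holds 23 genes of the writing, reading and removal of methylated cytosine and of 2-oxoglutarate supply, and all 23 had at least 1 gain and at least 1 5hmC loss, beside 76.8% and 88.3% of all genes. Their medians were 5.11% of bases in gains, 36.4% of bases in losses and 23.9% of 5hmC kept, beside 3.36% and 27.7% over all genes and 23.6% over the genes with a loss. The share kept ranged from 17.7% (Ogt, the glycosyltransferase that binds TET proteins) to 27.3% (Cxxc5). None of the 23 had a larger share in gains or in losses than Tet3. The highest share in gains was 34.5% at Cxxc5, a CXXC-domain protein, and the lowest was 1.30% at Xrcc1, a scaffold of base excision repair. The highest share in losses was 73.2% at Dnmt3a, a de novo methyltransferase, and the lowest 22.7% at Dnmt3b, its paralogue. Cxxc5 and Dnmt3a were also the 2 genes of the list with a WGBS region lower in Tet tcKO, which 4.9% of all genes have. Cxxc4, named for its descent from the Tet2 ancestor after its values were seen, had 3.63% of its bases in gains and 32.4% in losses, and its 5hmC went from 22.8% in Cre- to 5.32% in Tet tcKO.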

How the data were processed

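Following their methods, the authors used Trim Galore (0.4.4) for trimming, aligned them to mm10 with Bismark (0.18.2; bACE-seq read pairs separately, read 1 in PBAT mode), filtered with SAMtools (1.15.1), removed duplicates with Picard in GATK (4.1.3) and extracted CpG levels with MethylDackel (0.6.1). Versions are from the submitters' processing notes. They called DMRs with DSS, which smooths levels along neighbouring CpGs, tests each CpG and joins those past its threshold, so edges are less exact than levels.

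Each deposited group mean is a fraction from 0 to 1, a level of modified cytosine that DSS smoothed and averaged over the region and not a plain share of reads, given here in percent, and the deposited area statistic is a score used only for ranking. The order of the groups was read from the names of the lists. The deposited differences were not used, and changes are Tet tcKO minus Cre- of the means. All 176 regions start on a CpG of GRCm38, 173 have the reference's number of CpGs and none has more. In all 176 the area statistic has the sign of Cre- minus Tet tcKO, opposite to the change given here. Means over regions were weighted by CpGs. Genes, exons and starts are from GENCODE M21, and background values use its protein-coding genes on the autosomes, X and Y. Segments of 10% of a gene's length, and blocks of exons and introns, assign a region by its midpoint when giving levels and counts, and by bases when giving coverage. The overlap and coverage code was tested on simulated data. Python 3.11.15, numpy 2.4.6 and pandas 2.3.3 were used.

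In each gene the text describes the 3 WGBS regions with the highest absolute area statistic and the 3 largest and 3 smallest 5hmC differences, plus other regions singled out after their values were seen, such as those with the largest rise, the extremes of share kept and the gains near starts. The genes, the list of 23 and all settings were chosen with earlier results of these data known. Alternatives were other flanks, at least 10 CpGs, larger differences, midpoints, other weights, CpG shares, a subtracted background, an overlap of at least 50% and other start windows.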

Additional observations from a re-analysis of the deposited data

How the results depend on the processing

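No paired analysis was possible because the lists hold 1 mean per group, and for the same reason no library could be left out. Of 87 recomputed values for 30 results, 66 stayed within 1.5 times the value reported, 21 moved further and 0 changed sign. With at least 10 CpGs, gains numbered 8 at Tet1 and 0 at Tet2, and 5hmC losses 25 and 16. With differences of at least 0.1, 5hmC losses numbered 29 at Tet1. With at least 0.2, gains numbered 5 at Tet1, 5 at Tet2 and 18 at Tet3, and losses 4, 7 and 14. Counted by CpGs, 7.14% of Tet2 was in gains. With 2 percentage points subtracted from both 5hmC levels, the share kept was 14.2% at Tet1 and 15.5% at Tet2. Near start sites, gains within 1 kb numbered 0 at Tet1 and within 5 kb 3 at Tet1 and 1 at Tet2. 5hmC losses within 1 kb numbered 3 at Tet1, and within 5 kb 14 at Tet1, 3 at Tet2 and 8 at Tet3. Other flanks, midpoints and weights moved no value that far. The lists give no depth, so which differences the sequencing could have missed was not analysed here, and regions need several CpGs close together.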
